A study of Mus musculus with 6 samples.

Results

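The proteasome genes of mouse male germ cells were described across 6 arrays of purified cells, as the genes whose symbol begins with Psma, Psmb, Psmc, Psmd, Psme, Psmf or Psmg and a digit, with Psmc3ip left out. The rule took 49 of the 19938 genes that had a cluster of their own on the array. It works by symbol and used measured values only to pick the cluster of highest mean for the 5 genes with more than 1. The gene set was, however, chosen with earlier results of these data known. All 49 reached log2 6 on at least 1 array and were among the 17925 genes tested. They lie on many chromosomes, with 8 genes on chromosome 11, 6 each on 2 and 14, and 1, Psmd10, on X. The arrays (Affymetrix MoGene 1.0 ST, 1 colour) carried RNA of C57BL/6 mice from 1 KO and 1 WT array of round spermatids, haploid cells formed by the meiotic divisions, and from 2 KO and 2 WT arrays of pachytene spermatocytes, which are in meiotic prophase. KO males lacked Rnf8, a ubiquitin ligase that marks chromatin at DNA breaks and on the sex chromosomes, WT males were wild type, and no age is given in the labels. Cells of 3 to 4 males were sedimented at unit gravity per the study's design text, with a stated enrichment above 95%.

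The proteasome is the protease that degrades proteins tagged with ubiquitin. Its barrel, the 20S core, is built of rings of alpha subunits, which gate the entrance, and rings of beta subunits, some of which cut the substrate. The 19S cap recognises ubiquitin, removes it, and unfolds the substrate with a ring of ATPases, while other activators can sit on the barrel in its place. Germ cells of the mouse also carry Psma8, a testis paralogue of the alpha subunit Psma7, and the activator Psme4 (PA200) has been linked to the removal of acetylated histones in spermatids.

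Median intensity lay between 197.3 and 217.7 over the arrays, and principal component 1, which held 77.7% of the variance, separated the cell types. The cluster that lists Rnf8 together with Gm28043 was at 7.50 in the KO and 7.78 in the WT round spermatid array (log2 intensity). In pachytene spermatocytes it was at 7.86 and 8.05 in KO and at 8.51 and 8.86 in WT, so within each cell type KO was lower. Whether the cluster reads the deleted exons is not known here. The summed intensity of 8 round spermatid markers was 48900 in KO and 51200 in WT round spermatids, against 30100 to 37900 in pachytene spermatocytes, and that of 8 pachytene markers was 25800 in KO and 25000 in WT round spermatids, against 33500 to 38300. Of these lists 6 of 8 round spermatid markers rose and 6 of 8 pachytene markers fell, while the pachytene marker Spag6 rose. Transcripts of other cell types were also measured. Of the Leydig markers 6 of 6 fell, with a summed intensity of 1280 in KO and 1040 in WT round spermatids against 4690 to 6910 in pachytene spermatocytes. Of the Sertoli markers 6 of 7 fell, at 3680 and 3150 against 5910 to 7330. Of the 6 peritubular and vessel markers 1 rose, Dcn, which was at log2 11.03 and 10.60 against 7.59 to 8.30, and the sum was 3620 and 2830 against 1560 to 1790. Of the 7 markers of macrophages and blood 3 rose (1190 and 1290 against 887 to 957), and of the 7 spermatogonial markers 1 rose (2830 and 2400 against 2270 to 2630). None of these sums was near 0, and their part in the proteasome results was not tested. These are bulk samples, so fewer cells of a type and less RNA per cell cannot be told apart.

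The stretches upstream of the 5 called genes with the largest changes among those with a promoter window (Psma8 and Psmb1 had none), and of a catalytic subunit, are printed here so that the promoter motifs described with the results can be seen. Each is the 250 bases before the annotated start, 5′ to 3′ on the gene's strand, from RefSeq (GRCm38.p6). Capitals mark a CCAAT box (CCAAT on either strand) or an antioxidant response element core (TGACNNNGC on either strand), and Psmg1 and Psmd1 held no match to either.
Psmd10 (chrX:140956712-140956961, minus strand): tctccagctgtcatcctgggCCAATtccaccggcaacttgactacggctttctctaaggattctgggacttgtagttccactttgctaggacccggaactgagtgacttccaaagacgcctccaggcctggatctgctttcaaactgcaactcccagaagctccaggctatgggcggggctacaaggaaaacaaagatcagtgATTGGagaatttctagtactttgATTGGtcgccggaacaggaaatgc
Psmd14 (chr2:61711444-61711693, plus strand): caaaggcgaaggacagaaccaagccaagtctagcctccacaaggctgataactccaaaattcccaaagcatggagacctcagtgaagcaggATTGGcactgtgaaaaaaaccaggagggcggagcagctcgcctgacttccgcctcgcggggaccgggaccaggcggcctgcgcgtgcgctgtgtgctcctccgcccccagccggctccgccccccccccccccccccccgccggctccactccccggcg
Psmg1 (chr16:95990961-95991210, minus strand): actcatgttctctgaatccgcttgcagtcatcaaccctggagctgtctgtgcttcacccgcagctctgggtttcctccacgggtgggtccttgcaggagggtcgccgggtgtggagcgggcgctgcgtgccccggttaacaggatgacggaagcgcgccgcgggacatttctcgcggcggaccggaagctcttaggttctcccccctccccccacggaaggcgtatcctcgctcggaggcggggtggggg
Psmd1 (chr1:86064369-86064618, plus strand): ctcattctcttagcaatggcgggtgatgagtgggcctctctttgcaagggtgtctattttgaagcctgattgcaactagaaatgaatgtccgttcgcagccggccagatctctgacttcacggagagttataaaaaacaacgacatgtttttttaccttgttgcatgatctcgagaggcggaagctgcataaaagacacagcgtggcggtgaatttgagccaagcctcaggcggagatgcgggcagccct
Psma1 (chr7:114276117-114276366, minus strand): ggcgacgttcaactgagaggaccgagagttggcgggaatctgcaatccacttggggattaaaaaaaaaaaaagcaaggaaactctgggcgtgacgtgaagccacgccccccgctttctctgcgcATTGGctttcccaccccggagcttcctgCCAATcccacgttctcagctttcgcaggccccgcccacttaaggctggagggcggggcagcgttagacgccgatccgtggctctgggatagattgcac
Psmb5 (chr14:54617996-54618245, minus strand): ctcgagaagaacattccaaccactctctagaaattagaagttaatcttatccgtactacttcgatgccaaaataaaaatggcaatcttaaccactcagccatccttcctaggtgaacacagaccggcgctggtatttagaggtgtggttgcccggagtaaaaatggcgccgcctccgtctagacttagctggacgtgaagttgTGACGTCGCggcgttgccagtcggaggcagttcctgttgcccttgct

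The comparison of round spermatids with pachytene spermatocytes asked how the proteasome genes differ before and after the meiotic divisions. Of the 49 genes, 9 fell and 3 rose in round spermatids at an adjusted p of 0.05 (limma, additive fit of genotype and cell type, 2 against 4 arrays), and 37 did not pass. Among all 17925 genes 17.1% fell and 17.8% rose, so the share that fell, 18.4% of the members, lay near the background, and the share that rose, 6.12%, lay below it. The genes that fell were Psma8, Psmd14, Psmg1, Psmb1, Psmd1, Psma1, Psmb3, Psmc4 and Psma3, and those that rose were Psmd10, Psmc2 and Psma6. The median difference over the 49 genes was -0.13 on the log2 scale (quartiles -0.34 and 0.02), against -0.06 over all genes. Most changes were small: Psma8, Psmd14 and Psmd10 were the members that changed by more than 2-fold. The count depended on single arrays. With either round spermatid array left out 6 members passed, 12.2%, beside 20% of all genes without the KO array and 15.5% without the WT array. Without KO pachytene array 1 there were 21, 42.9%, of which 17 fell, beside 49.4% of all genes. The counts over all genes thus moved with those of the members, and under these 3 settings the members' share lay below that of all genes. Both spermatid arrays lay below all pachytene arrays for 20 members, 40.8%, against 26.4% of all genes. They lay above them for 6 members, 12.2%, against 24.1% of all genes. The difference was below 0 for 36 members, 73.5%, against 57.9% of all genes. These shares were not tested. Nothing in the labels ties the arrays of a group to different mice or cell preparations. The p-values therefore cover the scatter of these 6 arrays alone, which may be technical. Between the 2 WT pachytene arrays the root mean square SD was 0.24 over the members and 0.15 over all genes. Their median member difference, array 1 minus array 2, was -0.11. For the 2 KO pachytene arrays the SD was 0.19 over the members and 0.26 over all genes. The members' median difference between cell types was -0.12 without WT pachytene array 2 and -0.14 without array 1. Below, a level is the log2 intensity of the cluster listed for a gene, a difference is round spermatids minus pachytene spermatocytes on that scale unless a genotype is named, and levels of different genes are not compared. For Psma3, Psma5, Psmb3, Psmc1 and Psmd2, which have more than 1 cluster, it was not settled whether the cluster of highest mean also reads a near-identical copy. RefSeq names pseudogenes of Psma5, Psmb5, Psmb6 and Psmb7.

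**Figure D1:**
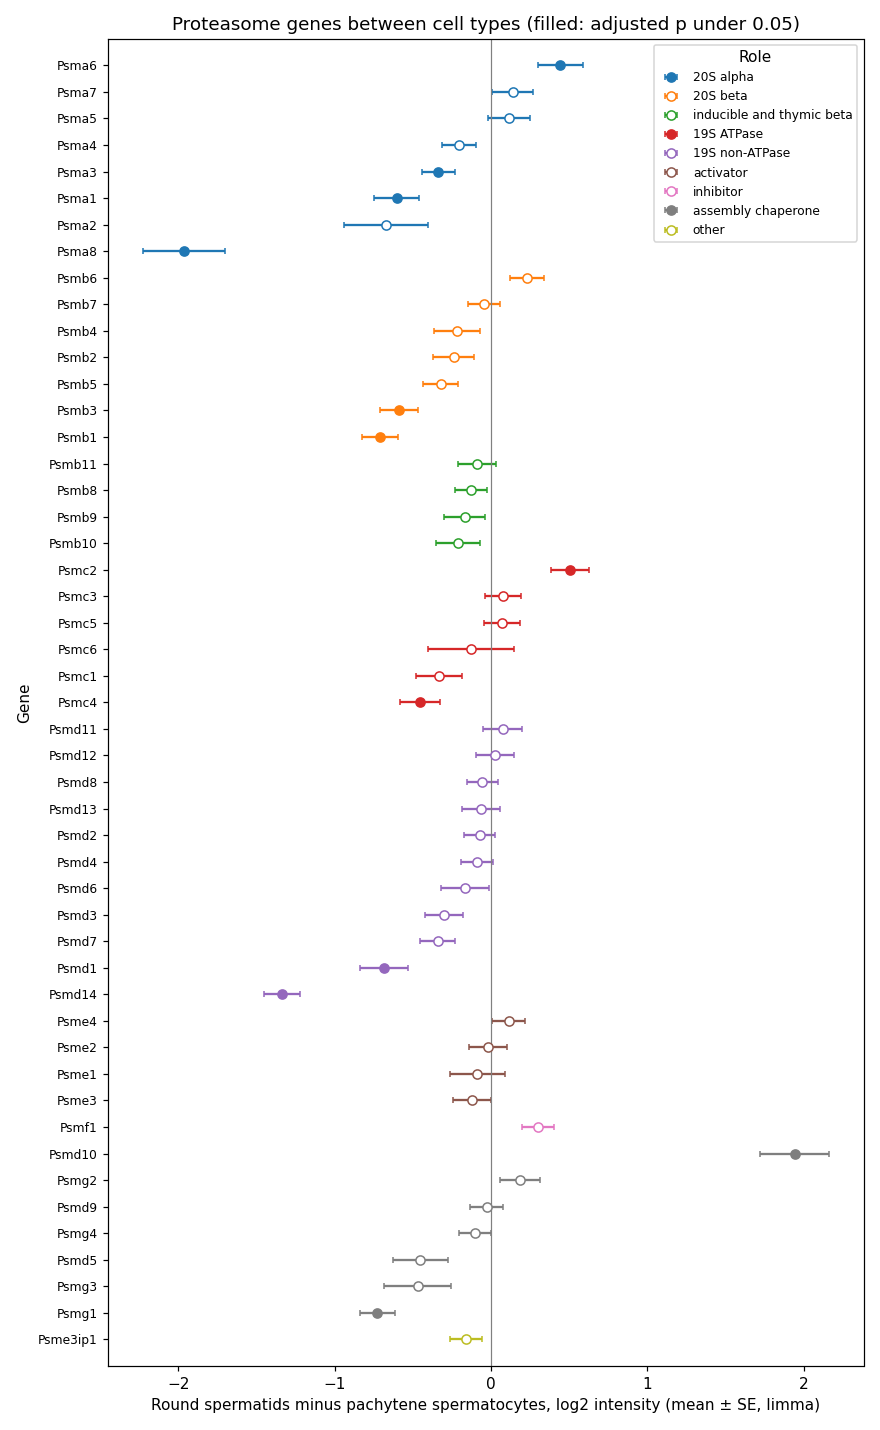
Difference of each of the 49 proteasome genes between round spermatids and pachytene spermatocytes (x axis, log2 intensity, points with SE from limma), grouped by role and coloured as in the legend; filled points passed an adjusted p of 0.05. Psma8 at -1.96 and Psmd14 at -1.34 stand to the left and Psmd10 at 1.94 to the right, while most genes lie within 0.5 of 0.

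The alpha subunits form the outer rings of the barrel. Of 8 alpha genes, 3 fell, 1 rose and 4 did not pass, with a median of -0.27. Psma8, the testis alpha subunit, was at 9.61 in the KO and 9.81 in the WT round spermatid array, against 11.66 and 11.33 in KO and 11.32 and 12.38 in WT pachytene spermatocytes (log2 intensity). Both spermatid arrays lay below every pachytene array, and WT pachytene array 2 was the highest of all. The difference was -1.96 (SE 0.26, adjusted p = 9.17e-04 in limma), a 3.90-fold fall, and 65 of the 17925 genes had a more negative value. It was -1.88 in KO and -2.04 in WT, and stood at -1.73 without WT pachytene array 2. Psma7 is the alpha subunit whose place in the ring Psma8 can take. It was at 7.81 in the KO and 7.59 in the WT round spermatid array, against 7.74 and 7.39 in KO and 7.62 and 7.51 in WT pachytene spermatocytes. Its arrays overlapped between the cell types, and its difference of 0.14 (SE 0.13) did not pass (adjusted p = 0.500 in limma). The changes of the 2 paralogues were not tested against each other.

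Psma1 was at 9.58 in KO and 9.85 in WT round spermatids, against 10.53 and 10.24 in KO and 10.17 and 10.34 in WT pachytene spermatocytes. It fell by 0.60 (SE 0.14, adjusted p = 0.0123 in limma), but at -0.41 without the KO round spermatid array it did not pass (adjusted p = 0.244). Psma3 was at 11.17 in KO and 11.00 in WT round spermatids, against 11.35 to 11.47 on the 4 pachytene arrays, a fall of 1.26-fold at an adjusted p of 0.0401. This call was lost without either spermatid array (-0.40 without KO, -0.27 without WT) or either WT pachytene array (-0.35 without array 1, -0.30 without array 2). The 3 clusters listed for Psma3 had differences of -0.34, -0.32 and -0.36. The subunit that moved the other way was Psma6, at 12.64 in KO and 12.74 in WT round spermatids against 11.99 to 12.41 in pachytene spermatocytes. Its rise of 0.44 (SE 0.14, adjusted p = 0.0437) was also lost without either spermatid array (0.57 without KO, 0.32 without WT), without either WT pachytene array (0.35 without array 1, 0.50 without array 2), without KO pachytene array 2 (0.42) and with a second quantile normalization (adjusted p = 0.0616). Psma2 was at 8.76 in KO and 9.00 in WT round spermatids and ranged from 9.05 to 10.14 in pachytene spermatocytes, where WT arrays 1 and 2 were the lowest and the highest. Its difference of -0.67 (SE 0.27) did not pass (adjusted p = 0.0952 in limma), though it did without WT pachytene array 1, where it was -0.92. The values of Psma4 and Psma5 were -0.20 and 0.11, and neither passed. The 2 clusters listed for Psma5 were at 0.11 each.

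**Figure D2:**
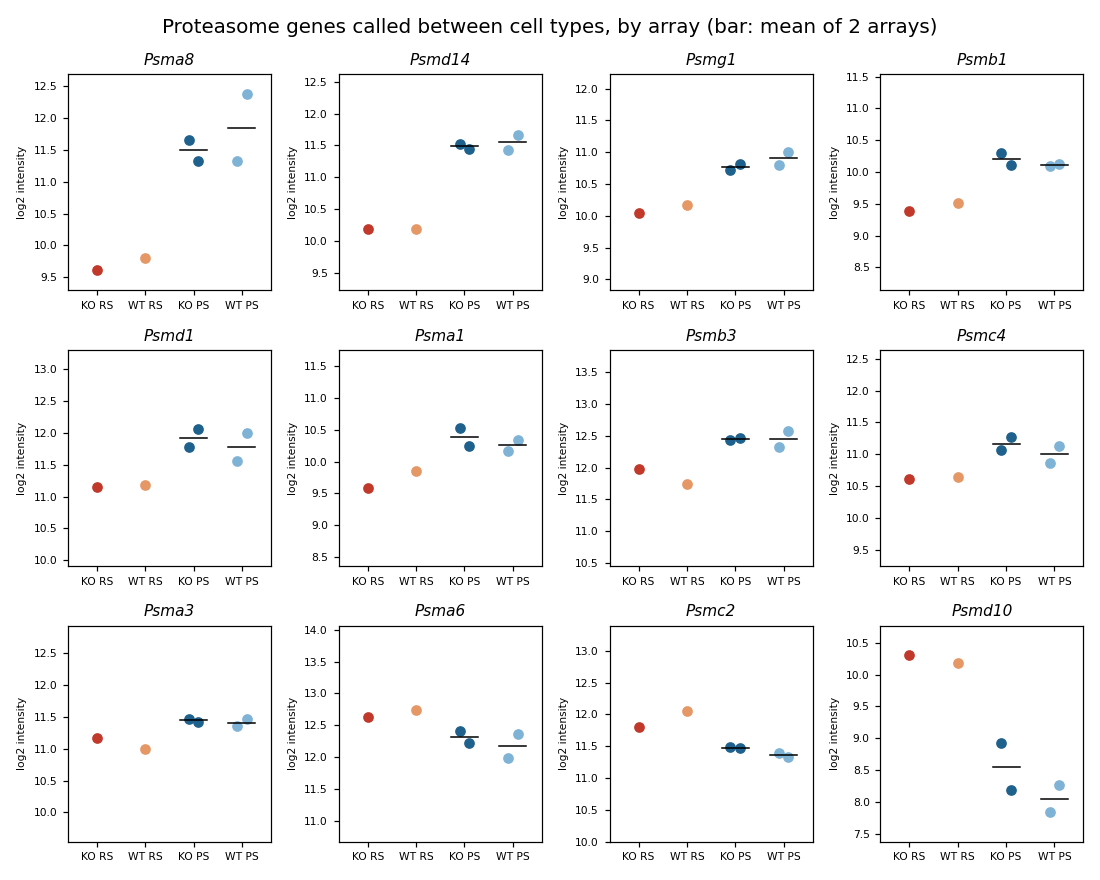
Log2 intensity on each array (y axis, all panels span the same range) of the 12 proteasome genes that passed between cell types, ordered from the largest fall to the largest rise. KO and WT round spermatids (KO RS, WT RS) have 1 array each, KO and WT pachytene spermatocytes (KO PS, WT PS) have 2, with their mean as a bar. In all 12 panels both spermatid arrays lie outside the range of the pachytene arrays. The 12 were picked by a test on these same arrays, so this is not a separate check. Of all genes, 24.1% had both spermatid arrays above and 26.4% below all pachytene arrays.

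The beta subunits form the inner rings, and Psmb5, Psmb6 and Psmb7 carry the active sites. Of the 7 constitutive beta genes 2 fell and 5 did not pass, with a median of -0.24. Psmb1 was at 9.38 in KO and 9.51 in WT round spermatids, against 10.30 and 10.12 in KO and 10.09 and 10.12 in WT pachytene spermatocytes. The fall was 0.71 (SE 0.11, adjusted p = 0.00204 in limma), and at -0.60 without the KO round spermatid array it did not pass (adjusted p = 0.0637). Psmb3 was at 11.98 in KO and 11.74 in WT round spermatids, against 12.44 and 12.46 in KO and 12.32 and 12.57 in WT pachytene spermatocytes. It fell by 0.59 (SE 0.12, adjusted p = 0.00655), with a difference of -0.60 on its other cluster. Without the WT round spermatid array it was at -0.47 and did not pass (adjusted p = 0.167). Neither Psmb1 nor Psmb3 has an active site.

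None of the genes for the catalytic subunits passed. Psmb5, which cuts after hydrophobic residues, was at 12.41 in KO and 12.20 in WT round spermatids and between 12.52 and 12.72 in pachytene spermatocytes, a difference of -0.32 (adjusted p = 0.0601 in limma). It passed with a second quantile normalization (-0.39, adjusted p = 0.0201), with a trended and robust prior (adjusted p = 0.0114) and without KO pachytene array 1 (-0.36, adjusted p = 0.0163). Psmb6, which cuts after acidic residues, lay the other way, at 11.77 on both spermatid arrays and between 11.45 and 11.68 in pachytene spermatocytes, a difference of 0.23 (adjusted p = 0.148). Psmb7, which cuts after basic residues, was at 11.44 in KO and 11.35 in WT round spermatids, within its pachytene range of 11.32 to 11.60. In cells exposed to interferon Psmb5, Psmb6 and Psmb7 can be exchanged for Psmb8, Psmb9 and Psmb10, and in the thymic cortex Psmb11 takes the place of Psmb5. Of these 4 inducible or thymic genes 0 passed in limma. Psmb8 lay at 6.65 in KO and 6.41 in WT round spermatids and between 6.53 and 6.81 in pachytene spermatocytes, and Psmb11 at 6.31 and 6.07 and between 6.18 and 6.44. The lower quartile of all clusters was 6.15 to 6.28 on these arrays, which is where Psmb11 lay. No detection call was made, so the level of Psmb11 cannot be told from that of dim probes. Psmb8 lay above that quartile but below log2 7 on every array. Psmb9 lay at 8.33 in KO and 8.01 in WT round spermatids and between 8.21 and 8.49 in pachytene spermatocytes, and Psmb10 at 7.55 and 7.24 and between 7.46 and 7.81. Without KO pachytene array 1, Psmb9 (-0.25) and Psmb10 (-0.30) passed as lower.

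The ATPases of the cap form the ring that unfolds the substrate. Of 6 genes 1 rose, 1 fell and 4 did not pass, with a median of -0.03. Psmc2 was at 11.79 in KO and 12.06 in WT round spermatids, against 11.48 and 11.46 in KO and 11.39 and 11.34 in WT pachytene spermatocytes. It rose by 0.51 (SE 0.12, adjusted p = 0.0125 in limma). The rise was 0.32 in KO and 0.69 in WT, and it did not pass when the WT round spermatid array was dropped (adjusted p = 0.321), nor without WT pachytene array 2 (0.47, adjusted p = 0.0510). Psmc4 was at 10.61 in KO and 10.64 in WT round spermatids, against 11.07 and 11.27 in KO and 10.87 and 11.12 in WT pachytene spermatocytes. Its fall of 0.45 (SE 0.13, adjusted p = 0.0262) was lost without the KO (-0.35) or the WT round spermatid array (-0.56) and without WT pachytene array 2 (-0.41). Psmc1 was at -0.33 (SE 0.15), with -0.48 on its other cluster, and did not pass (adjusted p = 0.130). The arrays of Psmc6 were widely spread, at 9.58 in KO and 9.76 in WT round spermatids, against 9.86 and 9.24 in KO and 9.57 and 10.52 in WT pachytene spermatocytes. WT pachytene array 2 was again the highest. Psmc3 and Psmc5 were at 0.08 and 0.07 and did not pass.

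Of the 11 genes for other cap subunits 2 fell and 9 did not pass, with a median of -0.09. Psmd14 (Rpn11) is the metalloprotease that cuts the ubiquitin chain from the substrate. It was at 10.18 on both spermatid arrays, against 11.52 and 11.44 in KO and 11.43 and 11.66 in WT pachytene spermatocytes. The fall of 1.34 (SE 0.11, adjusted p = 1.95e-04 in limma) was 2.52-fold, with -1.30 in KO and -1.37 in WT, and between -1.38 and -1.28 when any array was left out. It had the lowest adjusted p of the 49 genes, and 349 of the 17925 genes had a more negative value. Its partner in the cap, Psmd7 (Rpn8), lay at 10.85 on both spermatid arrays and between 11.00 and 11.35 in pachytene spermatocytes. That difference of -0.34 (SE 0.11) was at an adjusted p of 0.0502, and it passed without the filter on low values (0.0478), with the filter at log2 7 (0.0465), with the mean of clusters (0.0494), with a second quantile normalization (-0.38, 0.0354), with a trended and robust prior (0.0278) and without KO pachytene array 1 (-0.39, 0.0120). Psmd1 (Rpn2), a scaffold subunit, was at 11.15 in KO and 11.18 in WT round spermatids, against 11.78 and 12.07 in KO and 11.56 and 12.00 in WT pachytene spermatocytes. It fell by 0.68 (SE 0.16, adjusted p = 0.0103), and without the KO (-0.60) or the WT round spermatid array (-0.77) the adjusted p was 0.145 or 0.0792.

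The other large scaffold, Psmd2 (Rpn1), was at 12.75 in KO and 12.67 in WT round spermatids and between 12.72 and 12.85 in pachytene spermatocytes, a difference of -0.07 (SE 0.10). The ubiquitin receptor Psmd4 (Rpn10) was at 10.64 and 10.58 and between 10.65 and 10.75, a difference of -0.09. The lid subunits Psmd3, Psmd6, Psmd8, Psmd11, Psmd12 and Psmd13 had differences from -0.30 to 0.07, and 0 of them passed in limma. Psmd3 passed without KO pachytene array 1 (-0.32, adjusted p = 0.0470).

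The alternative activators did not pass. Psme4 was at 12.54 in KO and 12.62 in WT round spermatids, against 12.50 and 12.47 in KO and 12.54 and 12.37 in WT pachytene spermatocytes. The lower spermatid array and the highest pachytene array were both at 12.54, and the difference was 0.11 (SE 0.11, adjusted p = 0.497 in limma). Psme3, the nuclear PA28 gamma, was at 11.61 and 11.62 in KO and WT round spermatids and between 11.54 and 11.86 in pachytene spermatocytes. Psme1 and Psme2, the interferon-inducible PA28 alpha and beta, had differences of -0.09 (SE 0.17) and -0.02 (SE 0.12). Without KO pachytene array 1, Psme1 passed as lower (-0.24, adjusted p = 0.0477). A cluster that lists both Psme2b and Psme2 was not used. Psme3ip1, whose product binds Psme3 and which the symbol rule includes, was at -0.16. The inhibitor Psmf1 (PI31) was at 12.28 in KO and 12.38 in WT round spermatids, against 12.08 and 11.99 in KO and 12.00 and 12.07 in WT pachytene spermatocytes. Both spermatid arrays lay above all pachytene arrays, and the difference of 0.30 (SE 0.10) was at an adjusted p of 0.0589, or 0.0116 with a trended and robust prior and 0.0167 without KO pachytene array 1.

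**Figure D3:**
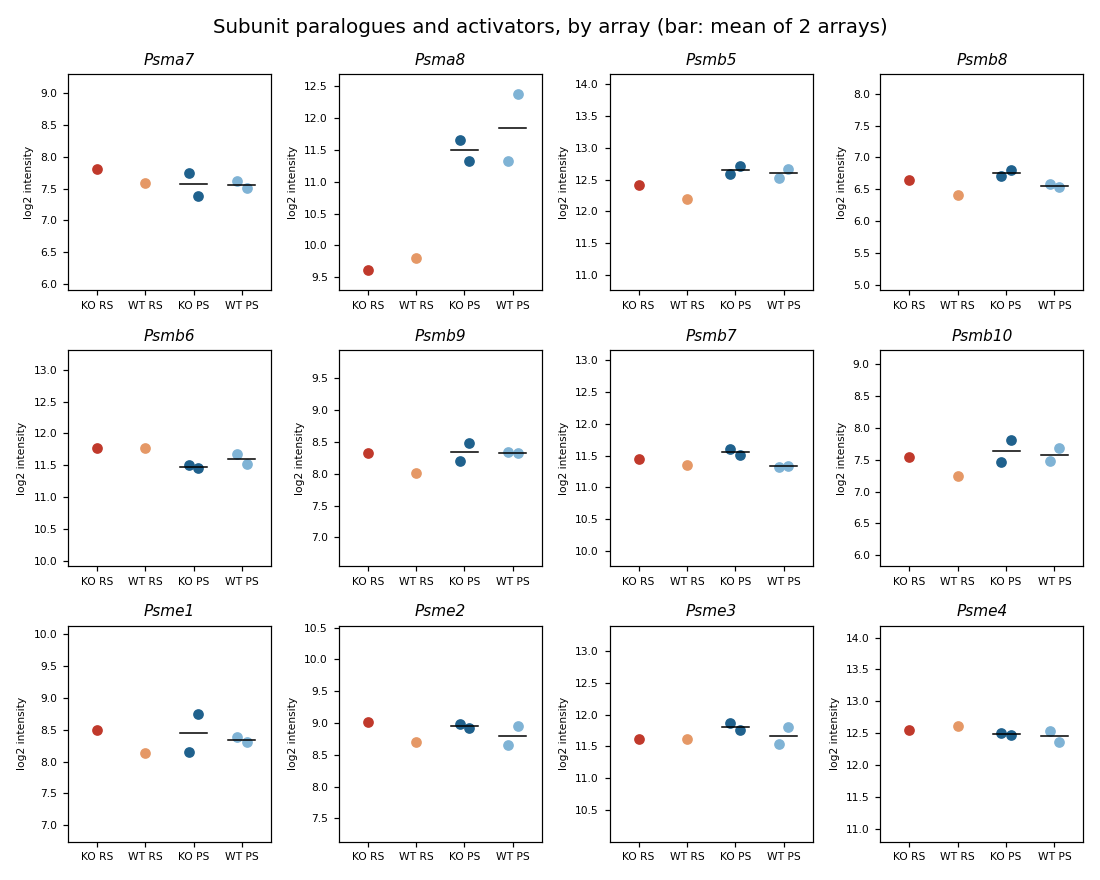
Log2 intensity on each array (y axis, all panels span the same range) of the paralogue pairs Psma7 and Psma8, Psmb5 and Psmb8, Psmb6 and Psmb9, and Psmb7 and Psmb10, and of the activators Psme1 to Psme4. Groups are as in the plot of called genes, with the mean of 2 arrays as a bar. Psma8 is the panel with a wide gap between the cell types, from 9.81 on the higher spermatid array to 11.32 on the lowest pachytene array.

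Assembly chaperones build the particle and then leave it. Of 7 genes 1 rose, 1 fell and 5 did not pass, with a median of -0.10. Psmd10 (gankyrin), which in mammals holds the ATPase Psmc4 during cap assembly and is also known as an oncoprotein in liver cancer, lies on chromosome X and is the only member there. It was at 10.30 in KO and 10.18 in WT round spermatids, against 8.92 and 8.19 in KO and 7.84 and 8.26 in WT pachytene spermatocytes. Both spermatid arrays lay above every pachytene array, among which KO array 1 was the highest. The rise of 1.94 (SE 0.22, adjusted p = 4.63e-04 in limma) was 3.84-fold, and 51 of the 17925 genes had a larger value. It was 1.75 in KO and 2.13 in WT, which are also the values without the WT or the KO round spermatid array. With any pachytene array left out the rise lay within that range. Psmc4, its ATPase partner, fell. The chaperone Psmd5, which holds Psmc2, lay at 8.52 in KO and 8.70 in WT round spermatids and between 8.77 and 9.38 in pachytene spermatocytes, while Psmc2 rose. Its difference of -0.45 (SE 0.17) did not pass (adjusted p = 0.0836), but did without KO pachytene array 1 (-0.31, 0.0285) or 2 (-0.57, 0.0136). Psmd9 was at -0.03.

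Psmg1 and Psmg2 form a dimer that helps to build the alpha ring. Psmg1 was at 10.05 in KO and 10.17 in WT round spermatids, against 10.72 and 10.82 in KO and 10.80 and 11.01 in WT pachytene spermatocytes. It fell by 0.73 (SE 0.11, adjusted p = 0.00158 in limma), a 1.66-fold change, by 0.72 in KO and by 0.74 in WT. Psmg2 was at 10.50 in KO and 10.93 in WT round spermatids and between 10.33 and 10.77 in pachytene spermatocytes, a difference of 0.19 (SE 0.13) that did not pass. The other such pair is Psmg3 and Psmg4. Psmg3 was spread over 7.02 to 7.83 in pachytene spermatocytes, with both extremes in KO, and was at 7.15 in KO and 6.78 in WT round spermatids. It was at -0.47 (SE 0.22, adjusted p = 0.142), and passed at -0.67 without KO pachytene array 1. Psmg4 was at -0.10.

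Within each genotype the test has 1 spermatid array, which is assumed to vary like the pachytene pairs. Its results are the same as those of the additive fit without the other genotype's spermatid array, so the 2 are not separate checks. In KO 1 member rose (8.36% of all genes) and 5 fell (7.18%), namely Psmd10 and Psma8, Psmd14, Psmb1, Psma1 and Psmg1. In WT 2 rose (11.5% of all genes) and 4 fell (8.45%), namely Psmd10 and Psmc2, and Psma8, Psmd14, Psmg1 and Psmb3. Without either WT pachytene array 3 members passed in each genotype, beside 9.18% of all genes in KO and 9.15% or 7.83% in WT. The differences within KO come from KO arrays alone. Leaving out a WT pachytene array therefore changed the variance estimate there but not the differences, whose median over the members stayed at -0.11. Psma8 did not pass in KO without either KO pachytene array. For the interaction, the difference of the cell type effect between KO and WT, 0 members and 0% of all genes passed (limma, 0 members and 130 of all genes at an unadjusted p under 0.05), so no difference between the 2 lists was shown.

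Genes that work with the proteasome were also read. Of 10 partners tested 3 fell, 1 rose and 6 did not pass, with a median of -0.24. Pomp, the maturation factor that guides the formation of the barrel, was at 8.75 in KO and 9.06 in WT round spermatids, against 10.24 and 10.01 in KO and 10.19 and 10.62 in WT pachytene spermatocytes. Both spermatid arrays lay below all pachytene arrays, and it fell by 1.36 (SE 0.15, adjusted p = 3.70e-04 in limma). Fbxo7, which binds the inhibitor Psmf1, was at 9.72 in KO and 9.69 in WT round spermatids, against 10.44 to 10.70 in pachytene spermatocytes, a fall of 0.86 (SE 0.12, adjusted p = 0.00104). Ecpas (Ecm29), a scaffold of the particle, fell by 0.50. Sem1 (Rpn15), a small subunit of the lid, was at 10.52 in KO and 10.68 in WT round spermatids against 9.65 to 9.96, and rose by 0.78 (SE 0.12, adjusted p = 0.00184). The call of Sem1 was lost without the WT round spermatid array (0.61), and that of Ecpas without the KO (-0.43) or the WT array (-0.56). The deubiquitinases Usp14 and Uchl5 were at -0.18 and -0.29 and did not pass.

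Of 9 ubiquitin receptors and shuttles 2 rose, 2 fell and 5 did not pass. Ddi1, a shuttle protein, was at 12.86 in KO and 12.88 in WT round spermatids, against 11.67 to 12.04 in pachytene spermatocytes, and rose by 1.07 (SE 0.13, adjusted p = 6.94e-04 in limma). Ubqlnl, a ubiquilin-like gene, was at 12.59 and 12.67 in KO and WT round spermatids, against 11.40 to 12.02 in pachytene spermatocytes, and rose by 1.05. Vcp, the segregase that hands ubiquitinated proteins to the proteasome, fell by 0.54, and its cofactor Nploc4 by 0.52. Calls were lost for Ubqlnl without the WT spermatid array (0.88), for Vcp without the KO one (-0.42), and for Nploc4 without the KO (-0.60) or the WT one (-0.43). Of the 2 ubiquitin-activating enzymes tested, the Y-linked Uba1y rose by 1.52 and Uba6 was at -0.04.

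The transcription factor Nfe2l1 (Nrf1) raises proteasome genes when the proteasome is inhibited in mammalian cells, after Ngly1 has removed its sugars. Nfe2l1 was at 9.43 in KO and 9.20 in WT round spermatids, against 9.85 and 10.03 in KO and 9.67 and 9.76 in WT pachytene spermatocytes, and fell by 0.51 (SE 0.11, adjusted p = 0.00748 in limma). Its relative Nfe2l2 (Nrf2) was at 10.26 in KO and 10.37 in WT round spermatids, against 9.29 and 8.46 in KO and 8.62 and 9.14 in WT pachytene spermatocytes, and rose by 1.44 (SE 0.24, adjusted p = 0.00228). Ngly1 rose by 0.50. Calls of Nfe2l1 (-0.51 without KO, -0.51 without WT) and Ngly1 (0.59 without KO, 0.40 without WT) were lost without either spermatid array.

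**Figure D4:**
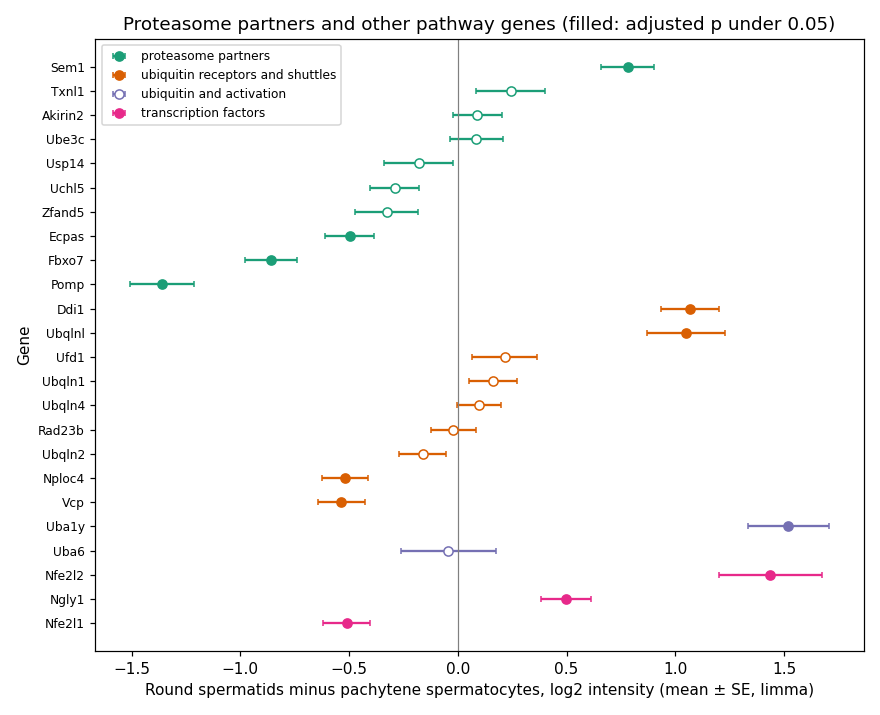
Difference of the 24 other pathway genes tested between round spermatids and pachytene spermatocytes (x axis, log2 intensity, points with SE from limma), coloured by list; filled points passed an adjusted p of 0.05. Pomp at -1.36 lies farthest left, and Uba1y at 1.52 and Nfe2l2 at 1.44 farthest right.

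Promoter windows were found for 41 of the 49 genes, and not for Psma8, Psmb1, Psmb2, Psmb7, Psmc3, Psmd3, Psmd7 and Psmg2. The antioxidant response element core that Nfe2l1 and Nfe2l2 can bind (TGACNNNGC, both strands, 250 bases) occurred in 5 of the 41 genes, 12.2%, against 11.5% of 27025 genes. Those were Psmb5, Psmb6, Psmc6, Psmd12 and Psmd9. None of them passed between cell types, and the match of Psmb5 is printed above in capitals. The CCAAT box occurred in 15 of the 41, 36.6%, against 37.5% of all genes. It was present in 3 of 3 genes that rose, 4 of 7 that fell and 8 of 31 that did not pass. The groups that rose or fell are small, and this split was not tested. Psmd10 had 3 matches, Psma1 had 2 and Psmd14 had 1. The cAMP response element TGACGTCA, which the spermatid factor Crem can bind, occurred in 0 of 41 genes and in 1.77% of all genes. The motifs TGACNNNGC and TGACGTCA share the letters TGAC, and a match is a description of these letters.

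The comparison of KO with WT asked whether the loss of Rnf8 changes these transcripts. In pachytene spermatocytes 0 of the 49 genes passed, as did 0% of all genes (limma, n = 2 per genotype; 0 members and 430 of all genes at an unadjusted p under 0.05). The median difference was 0.05 (quartiles -0.03 and 0.13), against 0.03 over all genes, and the median SE of a member was 0.16. Both KO arrays lay above both WT arrays for 8 members (14.9% of all genes) and below them for 2 (10.2% of all genes). The largest of those differences were 0.26 for Psmd3, 0.22 for Psmb7 and 0.20 for Psmb8 above WT, and -0.24 for Psmd7 and -0.13 for Psmb6 below it. Psmb7 was at 11.60 and 11.51 in KO and 11.32 and 11.34 in WT, and Psmd7 at 11.00 and 11.13 in KO and 11.27 and 11.35 in WT. Psmd10 had the most positive value, 0.50 (SE 0.26), and Psmc6 the most negative, -0.49 (SE 0.33), and for both the arrays of the genotypes overlapped. KO pachytene array 1, which was the high array for Psmd10, also had the highest summed intensity of round spermatid markers, 37900 against 30100 to 32900 on the other pachytene arrays, and whether this bears on Psmd10 was not tested. Psma8 was at -0.36 (SE 0.32), with 1 WT array below and 1 above both KO arrays.

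Over both cell types 0 of the 49 genes passed (0% of all genes; limma, 1 member and 979 of all genes at an unadjusted p under 0.05), with a median of 0.05 against 0.04 over all genes and a smallest adjusted p of 0.892 among the members. Psmg2, at -0.29 (SE 0.12), was the 1 member with an unadjusted p under 0.05 (limma). Its adjusted p of 0.892 was shared with other members. It was at 10.50 in the KO and 10.93 in the WT round spermatid array, and at 10.51 and 10.33 in KO and 10.50 and 10.77 in WT pachytene spermatocytes, where the genotypes overlapped. All 3 KO arrays lay above the WT arrays of their cell type for 5 members (10.9% of all genes). The 5 were Psmd3 at 0.21, Psmb8 at 0.21, Psmb7 at 0.18, Psmd2 at 0.11 and Psmd8 at 0.04. Psmb8 was dim, below log2 7 on every array. All 3 KO arrays lay below the WT arrays for 0 members (7.09% of all genes).

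In round spermatids there was 1 array of each genotype and so no replicate check. Of the 49 genes 0 differed at least 2-fold, against 0.385% of all genes, and 0 did at 1.5-fold. Differences ran from -0.42 for Psmg2 to 0.36 for Psmg3, with a median of 0.00 against 0.05 over all genes. Psma8 was at -0.20, Psmd14 at 0.00, Psmd10 at 0.13 and Psme4 at -0.07. Of all genes 59.1% lay above 0 here. The 5 interferon-inducible genes did too, with Psme1 at 0.36, Psmb9 at 0.31, Psme2 at 0.31, Psmb10 at 0.30 and Psmb8 at 0.24, where 5.04% of all genes lay as high as Psme1 and 17.2% as high as Psmb8. Psmb8 was dim, below log2 7 on both arrays. Psmb11, the thymic subunit, whose level could not be told from dim probes, was at 0.24 as well. Of 6 further genes of antigen presentation and interferon response 5 lay above WT on these arrays, B2m at 0.30, Tap1 at 0.28, Nlrc5 at 0.28, Irf1 at 0.22 and Tap2 at 0.13, with Tapbp at -0.05. In pachytene spermatocytes the same 5 members were at 0.10, 0.01, 0.16, 0.06 and 0.20, and none passed there or over both cell types. Summed marker intensities of some other cells were higher on the KO than on the WT spermatid array. They were 3680 and 3150 for Sertoli cells and 1280 and 1040 for Leydig cells. For peritubular and vessel cells they were 3620 and 2830, and for spermatogonia 2830 and 2400. The sums for macrophages and blood were 1190 and 1290. By gene, 7 of 7 Sertoli, 6 of 6 peritubular and vessel and 6 of 7 spermatogonial markers lay above WT. So did 4 of 6 Leydig and 3 of 7 macrophage and blood markers. Among the Leydig markers Cyp17a1 was at 0.60 and Hsd3b6 at -0.31. The part of these cells in the values was not tested.

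**Figure D5:**
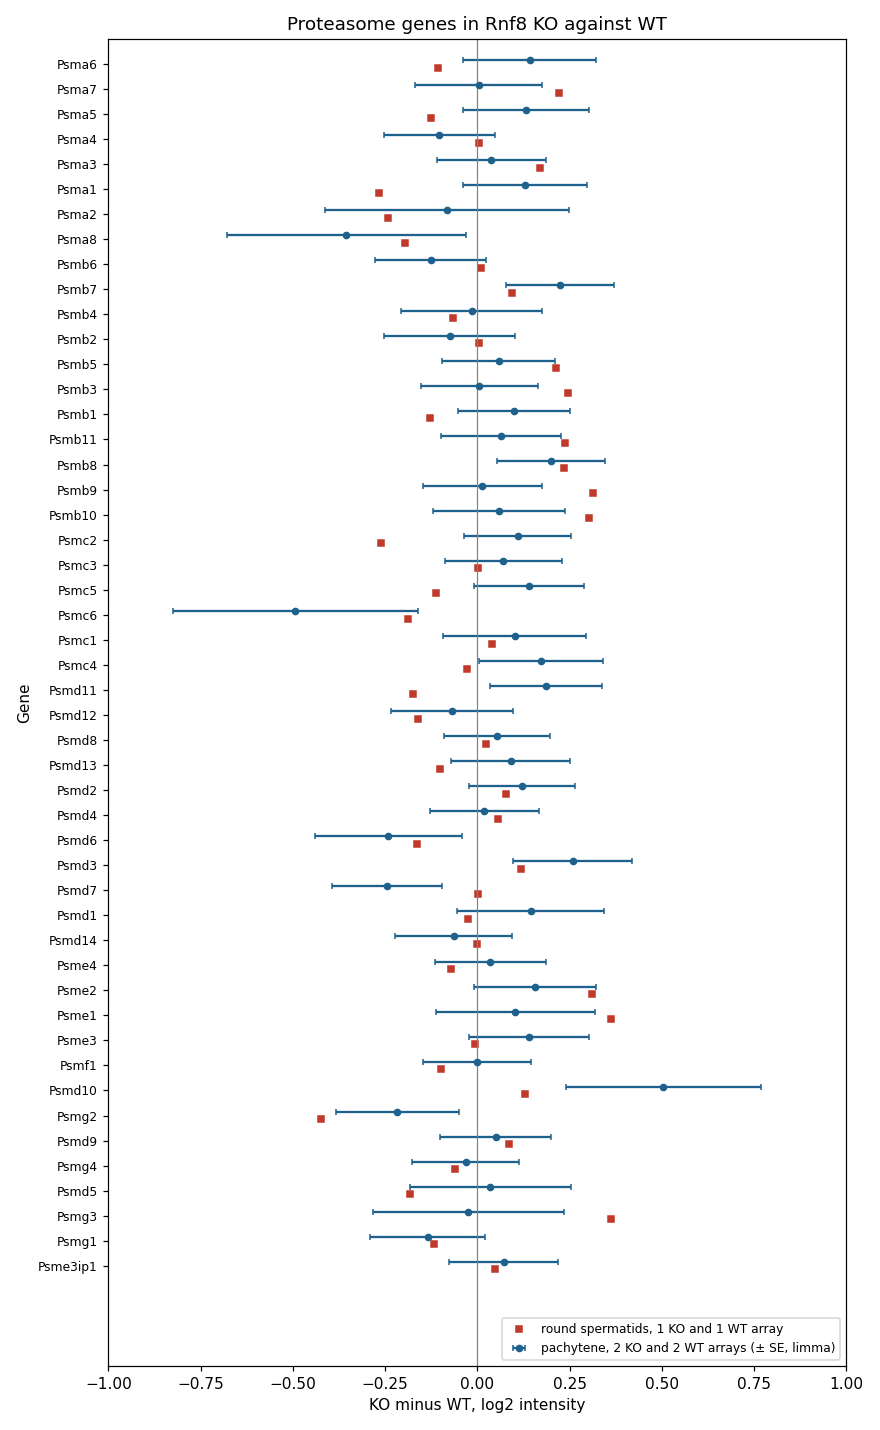
KO minus WT difference (x axis, log2 intensity) of each of the 49 proteasome genes in pachytene spermatocytes (circles with SE from limma, 2 KO and 2 WT arrays) and in round spermatids (squares, 1 array each). Psmd10 at 0.50 and Psmc6 at -0.49 are the outermost circles, both with wide errors, and all squares lie between -0.42 and 0.36.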

How the data were processed

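RNA of 6 samples was hybridised to Affymetrix MoGene 1.0 ST arrays. The authors deposited linear intensity per cluster. The submitters' processing notes name RMA and Affymetrix Expression Console 1.1, without the options used. Of 35556 clusters, 21789 had 1 gene symbol in the platform annotation, 1621 several and 12146 none. These named 19938 genes, matched by gene identifier to RefSeq (GRCm38.p6) for 21698 clusters. Per gene the cluster of highest mean was used, and log2 of the intensity was taken.

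The 17925 genes that reached log2 6 on any array were tested with limma 3.58.1 in R 4.3.3 (lmFit, eBayes), with Benjamini-Hochberg adjustment over all of them and a threshold of 0.05. The additive fit of genotype and cell type has 3 residual degrees of freedom. A fit of 4 groups, with 2, gave the differences within pachytene spermatocytes, within each genotype, and the interaction. The code was tested on simulated data. Alternatives were other filters, a second quantile normalization, the mean of a gene's clusters, another variance prior, the replicate number as a block, and each array left out. Values are given in full for the largest changes, paralogue sets, activators, the inhibitor and chaperones. The members and lists were chosen with earlier results of these data known. For arrays, their number limits the precision. Figures were drawn with matplotlib 3.10.9.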

Additional observations from a re-analysis of the deposited data

How the results depend on the processing

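Between cell types 12 members passed. Under the alternatives that kept all 6 arrays, 30% to 39.5% of all genes passed. The other filters, a second quantile normalization, the mean of clusters, the trended and robust prior and the replicate block gave 12 to 15, and leaving out each array gave 6 (without either round spermatid array) to 21 (without KO pachytene array 1), where 15.5% or 20% and 49.4% of all genes passed, against 34.9% with all arrays. Psma8, Psmd14, Psmd10 and Psmg1 passed under all 12 alternatives run for them, and no called member changed direction. Within KO 6 members passed, and 3 to 6 with an array left out. Within WT 6 passed, and 3 to 9 with an array left out. With the replicate block 12 members passed between cell types, beside 30% of all genes. Psma3 (adjusted p = 0.0932) and Psma6 (0.126) did not pass, while Psma2 (0.0494) and Psmc1 (0.0238) did, by limma. With the block the median difference over the members was -0.11 within KO and -0.21 within WT. For KO against WT in pachytene spermatocytes, over both cell types, and for the interaction 0 members passed under every alternative run, the replicate block included (43, 2 and 1 of all genes there). Both round spermatid arrays bear number 2. With the block, the difference between cell types is therefore taken against the pachytene arrays of number 2 alone, and the block adjusts for no pairing there. Within a genotype it shifts each difference by a number effect that is estimated from pachytene arrays only. Deviations of same-numbered pachytene arrays correlated at -0.23 across genes, so the numbers may not pair the arrays. With the numbers crossed, chosen after seeing the data, 0 members passed for KO against WT in pachytene spermatocytes and for the interaction, and 88 and 9 of all genes. For the round spermatid pair 0 members passed under all alternatives run. With an array of the other genotype left out, the differences within a genotype stay the same and the variance estimate changes. The cause of the other changes was not tested. The small number of arrays limits all calls.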
